A study of Homo sapiens with 15 samples.

Results

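The H3K4me3-only peaks are the 2798 of 22572 H3K4me3 peaks (12.4%) that were shorter than 4 kb and shared no base with any of the 62195 H3K27ac peaks called in the same cells. Both marks were profiled by chromatin immunoprecipitation sequencing (ChIP-seq) in MDA-MB-231 (referred to as Par), a claudin-low human breast cancer line, and in LM2 and BrM2, sub-populations of it that were selected in mice for growth in lung and in brain. All 3 lines were kept in DMEM with 10% serum for 3 days and, per the labels, fixed in 1% formaldehyde for 10 min. Each line had 2 H3K4me3 libraries, replicate 1 and replicate 2, which the study calls biological replicates. The labels do not say that they were separate cultures, so p-values measure the spread between these libraries. LM2 and BrM2 are each 1 selected population grown outside the animal, so a difference from Par cannot be told apart from a difference between populations of 1 line.

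H3K4me3 is placed on nucleosomes at promoters, above all at CpG islands, by the SET1 and MLL complexes. H3K27ac, written by p300 and CBP, marks active promoters and enhancers, and most active promoters carry both marks. H3K4me3 without acetylation is known at CpG islands of silent developmental genes, where Polycomb adds H3K27me3 (bivalent promoters). H3K27me3 was not measured here, so no peak is called bivalent.

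Sequences of 7 H3K4me3-only peaks, chosen from those named below, show CpG-dense stretches and not the range of the set. Their GC content ran from 60% to 77%, above the median of 56.8% for whole peaks of the set. Each is the stretch of 200 bases in the peak that holds most CpG sites without touching an annotated exon or UTR, on the plus strand of hg19, with every CpG in capitals. KCNN2, NRXN3 and KHDRBS2 were far higher in BrM2, BEND5 was high in LM2, the ENSG00000226767 peak was lost in BrM2, ZBTB16 had the highest mean level of the set, and SYNDIG1 stands for a CpG-poor intronic peak.
KCNN2, chr5:113696906-113697105, 23 CpGs: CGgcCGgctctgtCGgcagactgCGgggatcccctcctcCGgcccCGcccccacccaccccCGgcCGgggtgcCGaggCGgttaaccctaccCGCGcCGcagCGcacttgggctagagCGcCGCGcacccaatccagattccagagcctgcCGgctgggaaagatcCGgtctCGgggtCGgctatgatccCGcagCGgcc
NRXN3, chr14:79745443-79745642, 26 CpGs: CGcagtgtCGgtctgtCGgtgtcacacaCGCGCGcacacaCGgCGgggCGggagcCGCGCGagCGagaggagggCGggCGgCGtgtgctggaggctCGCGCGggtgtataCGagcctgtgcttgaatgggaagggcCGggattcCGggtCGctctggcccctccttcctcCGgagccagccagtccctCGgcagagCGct
KHDRBS2, chr6:62995543-62995742, 13 CpGs: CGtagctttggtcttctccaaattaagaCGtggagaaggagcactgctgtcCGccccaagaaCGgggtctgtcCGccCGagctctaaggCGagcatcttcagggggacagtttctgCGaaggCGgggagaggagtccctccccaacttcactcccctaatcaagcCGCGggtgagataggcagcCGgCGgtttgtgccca
BEND5, chr1:49242047-49242246, 14 CpGs: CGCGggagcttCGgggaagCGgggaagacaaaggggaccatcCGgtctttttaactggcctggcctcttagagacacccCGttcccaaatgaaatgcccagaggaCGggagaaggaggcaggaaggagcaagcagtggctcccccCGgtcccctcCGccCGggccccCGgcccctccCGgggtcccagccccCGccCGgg
ENSG00000226767, chr7:64974083-64974282, 33 CpGs: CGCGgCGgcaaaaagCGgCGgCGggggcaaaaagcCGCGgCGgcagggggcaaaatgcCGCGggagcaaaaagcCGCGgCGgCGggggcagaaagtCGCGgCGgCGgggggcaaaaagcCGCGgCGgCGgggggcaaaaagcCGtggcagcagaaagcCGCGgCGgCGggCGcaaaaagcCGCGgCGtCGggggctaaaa
ZBTB16, chr11:113931337-113931536, 36 CpGs: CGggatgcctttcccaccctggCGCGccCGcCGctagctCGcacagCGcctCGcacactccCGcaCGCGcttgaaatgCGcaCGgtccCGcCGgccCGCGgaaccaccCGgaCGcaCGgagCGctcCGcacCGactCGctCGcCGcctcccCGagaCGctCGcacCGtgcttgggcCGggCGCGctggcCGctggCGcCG
SYNDIG1, chr20:24565703-24565902, 9 CpGs: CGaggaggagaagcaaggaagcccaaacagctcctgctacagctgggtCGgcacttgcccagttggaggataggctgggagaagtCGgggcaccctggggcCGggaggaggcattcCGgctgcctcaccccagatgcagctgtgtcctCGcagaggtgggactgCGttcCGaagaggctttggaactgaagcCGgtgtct
The ENSG00000226767 stretch is internally repetitive, with 6 copies of GCAAAAAGC, and how reads of repeated sequence were placed was not tested.

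H3K4me3-only peaks were short and weak. Their median length was 466 bases (middle 50% from 302 to 740), against 1800 in the other 19774 H3K4me3 peaks. Their median normalized count per kb, a level in which counts are divided by the library's size factor and by peak length, was 16.4 against 96.2. H3K4me3 peaks under 1 kb that did overlap H3K27ac (5384 peaks, median length 543) are the closest set in size, with a median of 17.4 normalized counts per kb. Against that set the H3K4me3-only peaks were richer in CpG. The ratio of observed to expected CpG had a median of 0.571, against 0.381 in the short peaks with H3K27ac and 0.618 in all other H3K4me3 peaks. CpG-rich peaks, with a ratio of at least 0.6 and at least 50% GC, made up 1146 of the 2798 (41.0%), 18.4% of the short peaks with H3K27ac and 46.4% of all other peaks.

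A protein-coding transcription start lay within 2 kb of 710 H3K4me3-only peaks (25.4%), against 15.3% of the short peaks with H3K27ac and 64.0% of all other peaks. Another 457 (16.3%) lay at the start of a different kind of gene, 315 of them at a long non-coding RNA and 105 at a pseudogene. The remaining 1631 (58.3%) had no annotated start within 2 kb, with 792 inside a gene and 839 between genes. The peaks at protein-coding starts were the longest and most CpG-rich of these classes, with a median length of 717 bases and 61.7% CpG-rich, against a median of 397 bases and 31.5% between genes. The letters TGANTCA, the site of AP-1, a factor bound at many enhancers, occurred on either strand in the central 300 bases of 7.65% of H3K4me3-only peaks, 16.7% of the short peaks with H3K27ac and 8.07% of all other peaks. The GC-box letters GGGCGGG, bound by SP factors at promoters, occurred in 20.5%, 14.7% and 30.04% of the same windows. These are letter matches in windows that differ in GC content, not binding sites.

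The nearest H3K27ac peak lay a median of 36249 bases away, with 686 of the peaks (24.5%) under 10 kb from one and 1613 (57.6%) within 50 kb. The closest, near ENSG00000250976 (chr17:48642363-48642642), was separated from H3K27ac by 6 bases, so it sits at the limit of the rule. The longest, at KIRREL3, had 3917 bases, and the shortest peak left out for its length alone, at FAM182B, had 4254. Peaks of each mark were called by the authors on the libraries of all lines together, so an H3K27ac region of 1 line may be missing from the list. H3K27ac counts exist only inside H3K27ac peaks, so acetylation below the calling limit was not measured in the H3K4me3-only peaks.

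Reads in all H3K4me3 peaks numbered from 3489607 (Par replicate 1) to 9839629 (LM2 replicate 2) per library, and replicate 2 was the deeper library in every line. A library had 3 counts or fewer in 8.54% (BrM2 replicate 2) to 64.5% (Par replicate 1) of H3K4me3-only peaks, so depth limits what can be seen in replicate 1. A count of 0 allows up to 3 counts, which is a normalized count of 5.51 in Par replicate 1 and 1.59 in LM2 replicate 2, the extremes. As a check of the cell type, VIM, CD44, ZEB1, AXL, EGFR and MSN were looked up as markers of claudin-low MDA-MB-231 cells. They had H3K4me3 at their promoters in all libraries (mean normalized counts from 290.0 to 1460), while the blood genes PTPRC, CD3E and SPI1 had no H3K4me3 peak. All 9 luminal or epithelial genes looked up also had a peak at the promoter, from 29.3 at CDH1 to 459.5 at KRT8 and KRT18, above MSN, so these levels do not separate both sets of markers. None of these marker peaks was an H3K4me3-only peak.

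The share of reads that fell in H3K4me3-only peaks was lowest in Par and highest in BrM2 at both replicate numbers. In replicate 1 the share was 0.401% in Par (95% Wilson interval 0.394 to 0.407), 0.519% in LM2 (0.512 to 0.526) and 0.713% in BrM2 (0.705 to 0.721). In replicate 2 it was 0.710% in Par (0.704 to 0.717), 0.926% in LM2 (0.920 to 0.932) and 1.08% in BrM2 (1.07 to 1.08). These intervals cover counting error only. The line means were 0.556% ± 0.219 (SD, n = 2), 0.723% ± 0.288 and 0.895% ± 0.257, so the lines overlapped, and the gap between the replicate numbers was as large as that between the lines. An exact permutation test over 2 libraries a line cannot reach 0.05, so no test is given. Within a replicate number, the BrM2 share was 1.78 times (replicate 1) and 1.52 times (replicate 2) that of Par. In the short peaks with H3K27ac the same ratios were 1.11 and 1.07. After leaving out the 361 peaks called in any comparison below, they were 1.38 and 1.23, and those of LM2 to Par were 1.19 and 1.23.

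**Figure D1:**
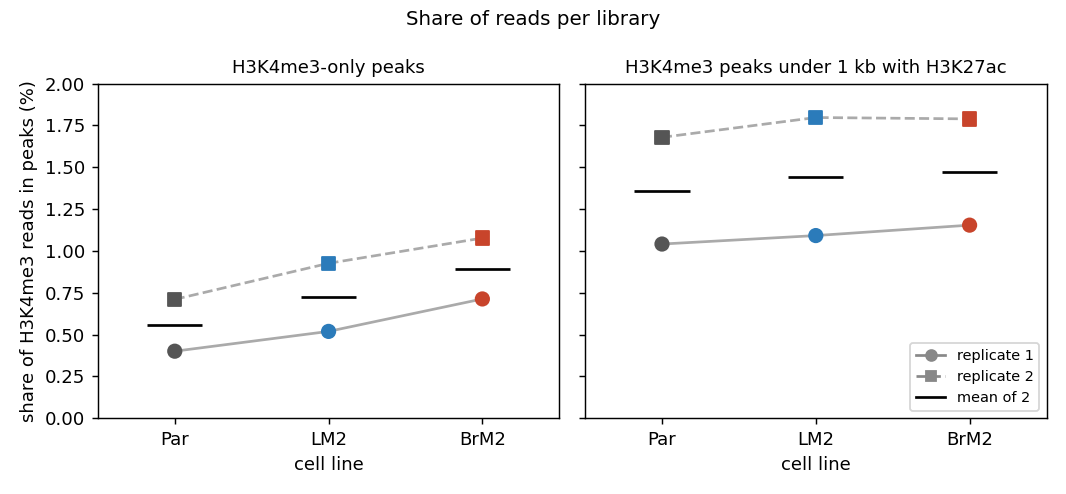
Share of H3K4me3 reads in peaks (%, vertical axis) by cell line, for H3K4me3-only peaks (left) and H3K4me3 peaks under 1 kb with H3K27ac (right); circles are replicate 1, squares replicate 2, black bars the mean of 2. On the left the share goes from 0.401% in Par to 0.713% in BrM2 in replicate 1 and from 0.710% to 1.08% in replicate 2, and on the right it changes by a factor of at most 1.11.

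Differences between lines were tested with DESeq2 over all 22572 H3K4me3 peaks, and a peak is called when its adjusted p is under 0.05. More H3K4me3-only peaks were higher than lower in each comparison, and the most calls were for BrM2. Peaks were called on all libraries merged, so a weak peak can enter the set through the line where it is high. Par had the fewest reads in peaks at both replicate numbers (3489607 and 6714331). The part of this in the excess of higher calls against Par was not tested. BrM2 against Par gave 233 calls (3.54% of all H3K4me3 peaks were called), with 206 higher (7.36% of the 2798, against 2.77% of all H3K4me3 peaks) and 27 lower (0.965% against 0.775%). LM2 against Par gave 102 (2.32% of all), with 83 higher (2.97% against 1.82%) and 19 lower (0.679% against 0.496%). The average of the LM2 and BrM2 log2 fold changes, the metastatic comparison, gave 98 (2.37% of all), with 80 higher (2.86% against 1.84%) and 18 lower (0.643% against 0.536%). BrM2 against LM2, which does not use Par, gave 220 (3.18% of all), with 166 higher (5.93% against 2.05%) and 54 lower (1.93% against 1.13%). The first 3 comparisons share the same Par libraries and are not independent of each other.

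Same-numbered libraries of the lines varied together, so the fit was repeated with the replicate number as a block. BrM2 against Par then gave 359 higher (12.8%, against 8.38% of all H3K4me3 peaks) and 63 lower (2.25% against 8.94%). BrM2 against LM2 gave 305 higher (10.9% against 8.64%) and 145 lower (5.18% against 12.5%). LM2 against Par gave 172 higher (6.15% against 7.87%) and 36 lower (1.29% against 4.85%), and the metastatic comparison 180 higher (6.43% against 6.94%) and 36 lower (1.29% against 6.24%). In this fit the higher share was above that of all peaks for BrM2 against Par and against LM2 and below it for LM2 against Par and the metastatic comparison, where the filter on low counts left 1762 and 1620 of the 2798 members with an adjusted p. In edgeR with the block, which tested every peak, the higher share was above that of all peaks in each comparison: 17.98% against 14.5% for LM2 and 27.5% against 15.1% for BrM2 relative to Par, 17.9% against 12.3% in the metastatic comparison and 22.4% against 15.9% for BrM2 relative to LM2. The lower shares there were below those of all peaks, at 5.29% against 11.6%, 7.33% against 18.2%, 6.36% against 14.8% and 16.0% against 22.7%. The order of the LM2 and metastatic shares thus changed with the tool.

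Over all members rather than calls, the median log2 ratio of line means was 0.34 for BrM2 against Par (2716 peaks) and 0.21 for LM2 against Par (2591 peaks), with a line that had 3 counts or fewer in both libraries set to 3 and peaks at that floor in both lines left out. The same medians over all H3K4me3 peaks were -0.02 and 0.01. Size factors taken from the H3K4me3-only peaks alone moved the median fitted log2 fold change of all peaks to -0.30 (BrM2) and -0.23 (LM2), and that of the H3K4me3-only peaks, 0.47 and 0.38 in the main scaling, to 0.21 and 0.10. With loess offsets the members' medians were 0.25 and 0.23. They also moved with single libraries. The fitted BrM2 median was 0.21 without Par replicate 1, 1.06 without Par replicate 2, 0.72 without BrM2 replicate 1 and 0.18 without BrM2 replicate 2. The LM2 median was 0.18 without Par replicate 1, 0.89 without Par replicate 2 and 0.65 without LM2 replicate 1, and it turned to -0.13 without LM2 replicate 2. Calls changed with the scaling too, and their shares are given against those of all H3K4me3 peaks. Size factors from the H3K4me3-only peaks gave 154 higher (5.50% against 1.59%) and 41 lower (1.47% against 0.620%) in BrM2 relative to Par. LM2 had 51 (1.82% against 0.691%) and 23 (0.822% against 0.456%). The metastatic comparison had 29 (1.04% against 0.603%) and 27 (0.965% against 0.456%). BrM2 against LM2 had 183 (6.54% against 1.78%) and 63 (2.25% against 0.780%). Loess offsets, which remove a trend of the fold change with level, gave 183 higher (6.54% against 2.77%) and 97 lower (3.47% against 2.29%) for BrM2 against LM2. With loess offsets and the block, BrM2 against Par had 271 higher (9.69% against 8.73%) and 83 lower (2.97% against 6.55%). LM2 against Par had 157 (5.61% against 7.28%) and 44 (1.57% against 5.09%). The metastatic comparison had 154 (5.50% against 6.88%) and 63 (2.25% against 5.17%). BrM2 against LM2 had 264 (9.44% against 9.63%) and 173 (6.18% against 8.83%). There the higher share was above that of all peaks only for BrM2 against Par.

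Calls also depended on both libraries of a line being in the fit, in the set and over all H3K4me3 peaks alike. For BrM2 against Par, fewer members were called whichever Par or BrM2 library was left out. For LM2 against Par, fewer were called whichever Par or LM2 library was left out. Without Par replicate 1, Par replicate 2 or LM2 replicate 2 the called share was below that of all H3K4me3 peaks. There the filter on low counts left from 1037 to 1788 of the 2798 members with an adjusted p. For the metastatic comparison, fewer were called in each such fit. Without Par replicate 1, Par replicate 2 or BrM2 replicate 2 the called share was below that of all H3K4me3 peaks. There the filter left from 805 to 1752 members with an adjusted p. For BrM2 against LM2, fewer were called whichever LM2 or BrM2 library was left out. With a library left out, the called share stayed above that of all H3K4me3 peaks for BrM2 against Par and for BrM2 against LM2. A line left with 1 library was then assumed to vary like the others.

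**Figure D2:**
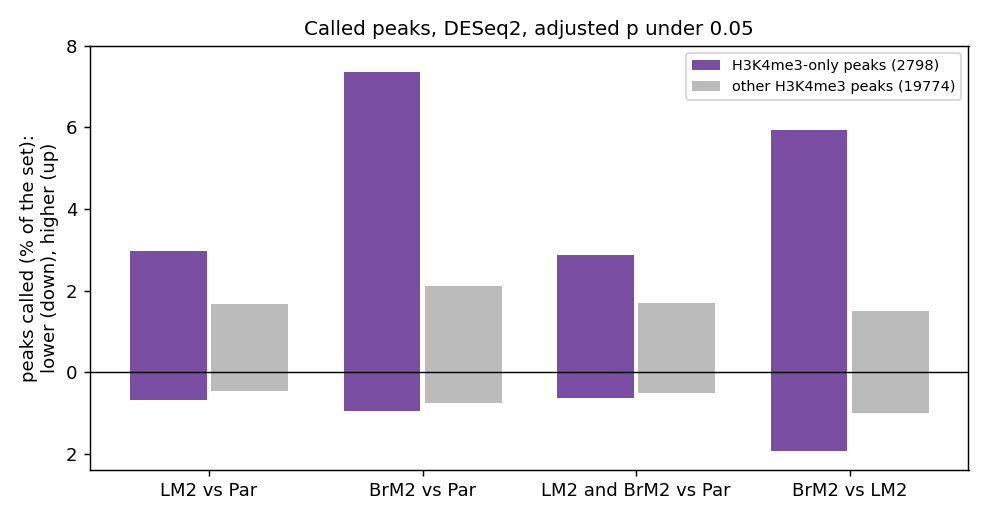
Share of peaks called (%, vertical axis) in each comparison, higher above and lower below the zero line, for H3K4me3-only peaks (purple) and all other H3K4me3 peaks (grey). The tallest bar is BrM2 against Par at 7.36%, beside 2.12% of the other peaks.

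Many called peaks had 3 counts or fewer in both libraries of the lower line. Of the 206 peaks higher in BrM2 than in Par, 121 (58.7%) had 3 counts or fewer in both Par libraries, and the median normalized count was 1.69 in Par and 37.3 in BrM2. Of the 83 higher in LM2, 51 (61.4%) were at that floor in Par, with medians of 1.16 and 35.0. Of the 27 lower in BrM2, 21 (77.8%) were at the floor in BrM2, but of the 19 lower in LM2 only 5 (26.3%) were at the floor in LM2. Between BrM2 and LM2, 70 of 166 higher (42.2%) and 34 of 54 lower (63.0%) were at it. The groups did not overlap in any of these peaks, which the calls themselves favour at 2 libraries a line. Folds against such a line are given below as lower bounds.

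The peaks at KCNN2, NRXN3 and KIRREL3 were far higher in BrM2 than in the other lines. KCNN2 (chr5:113696325-113698703), a calcium-activated potassium channel, had normalized counts of 11.02 and 28.5 for Par, 16.8 and 20.6 for LM2, and 598 and 457 for BrM2. Both BrM2 libraries stood far above the other 4, and the log2 fold change against Par was 4.62 ± 0.46 (SE, adjusted p = 3.13e-20). NRXN3 (chr14:79744897-79747066), a presynaptic adhesion protein, had 5.51 and 7.71 for Par, 1.52 and 5.82 for LM2, and 173 and 206 for BrM2, a log2 fold change of 4.78 ± 0.61 (adjusted p = 4.95e-12). KIRREL3 (chr11:126867296-126871212), an adhesion protein of synapses, had 1.84 and 5.39 for Par, 1.52 and 6.88 for LM2, and 150 and 253 for BrM2 (5.61 ± 0.72, adjusted p = 6.2e-12). Its peak ended 839 bases from an H3K27ac peak, whereas those of KCNN2 and NRXN3 lay 115506 and 203275 bases from one. All 3 had adjusted p-values under 0.05 against LM2 too.

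Other BrM2 gains lay at non-coding RNAs and pseudogenes. PURPL (chr5:27217364-27219223), a long non-coding RNA, had 1.84 and 6.16 for Par, 27.4 and 46.1 for LM2, and 137 and 172 for BrM2. It rose in LM2 (log2 fold change 3.02 ± 0.70, adjusted p = 0.0015), in BrM2 (5.06 ± 0.68, 6.86e-11) and further from LM2 to BrM2 (2.04 ± 0.49, 0.00184), an order in which the 3 lines did not overlap. LINC02327 (chr14:29298540-29299872), a long non-coding RNA, had 3.67 and 0.771 for Par, 1.52 and 0.529 for LM2, and 81.7 and 96.5 for BrM2. It was at least 22.8-fold higher in BrM2 than in Par (adjusted p = 2.36e-06). An intergenic peak near ENSG00000259117 (chr14:48369951-48370973) had at most 1.84 in Par and LM2 and 92.3 and 94.6 in BrM2, at least 23.9-fold higher than in Par (adjusted p = 1.29e-06). VENTXP5 (chr8:33578933-33581040), a pseudogene, had 3.67 and 1.54 for Par, 3.05 and 6.35 for LM2, and 62.0 and 120 for BrM2, at least 23.3-fold higher (adjusted p = 1.67e-06). LINC01446 (chr7:53878004-53880065) had 3.67 and 6.16 for Par, 0 and 1.06 for LM2, and 75.1 and 100.2 for BrM2, at least 28.5-fold higher than in LM2 (adjusted p = 1.7e-06).

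Among non-overlapping peaks whose normalized count averaged 30 or more, the 4 largest gains in LM2 were at BEND5, SYNDIG1, RNA5SP360 and PAFAH1B2P2, and the last 2 were also called in BrM2. BEND5 (chr1:49241969-49243195), a BEN-domain transcriptional repressor, had 0 and 0.771 for Par, 165 and 96.9 for LM2, and 0 and 5.60 for BrM2. It was at least 33.4-fold higher in LM2 than in Par (adjusted p = 8.93e-06) and fell from LM2 to BrM2 by 5.23 on the log2 scale (SE 0.76, adjusted p = 1.97e-09). Its call in the metastatic comparison (adjusted p = 0.0121) was lost with the replicate block (adjusted p = 0.0737). SYNDIG1 (chr20:24565075-24568412), in an intron 114810 bases from the start of a gene for a synapse protein, had 0 and 8.48 for Par, 94.5 and 209 for LM2, and 5.27 and 11.2 for BrM2 (LM2 against Par 4.85 ± 0.74, adjusted p = 4.35e-08). An intergenic peak nearest to RNA5SP360 (chr12:42065671-42066767) had 7.35 and 3.08 for Par, 127 and 86.3 for LM2, and 25.05 and 33.0 for BrM2. It rose in LM2 (4.52 ± 0.71, 1.05e-07) and less in BrM2 (2.68 ± 0.72, 0.00989), and the difference of both was itself called (adjusted p = 0.0175). PAFAH1B2P2 (chr12:98050274-98051056), an intronic peak in a pseudogene, had 0 and 3.85 for Par, 45.7 and 24.4 for LM2, and 62.0 and 59.8 for BrM2, and rose in LM2 (3.75 ± 0.89, 0.00242) and in BrM2 (4.58 ± 0.88, 3.23e-05).

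Losses in LM2 included peaks that were higher in BrM2 than in Par. Losses were named only where the 6 libraries averaged 30 or more, as 8 of the 19 did. KHDRBS2, CTNNA2 and LINC01159 reached that average through BrM2, with means of 14.6, 24.9 and 21.8 in Par and 0.794, 1.32 and 1.06 in LM2. The naming rule thus favours LM2 losses that are high in BrM2, and how common they are was not tested. KHDRBS2 (chr6:62995415-62996681), an RNA-binding splicing regulator of neurons, had 18.4 and 10.8 for Par, 0 and 1.59 for LM2, and 256 and 154 for BrM2. It was at least 4.73-fold lower in LM2 than in Par (adjusted p = 0.0216), rose in BrM2 by 3.88 ± 0.55 (7.76e-10), and was at least 66.6-fold higher in BrM2 than in LM2 (1.14e-11). CTNNA2 (chr2:79739497-79740419), the neuronal alpha-catenin, had 31.2 and 18.5 for Par, 0 and 2.65 for LM2, and 141 and 140.05 for BrM2, with log2 fold changes against Par of -3.68 ± 0.85 (0.00155) in LM2 and 2.55 ± 0.52 (0.000124) in BrM2. LINC01159 (chr2:105489615-105490129), 19042 bases from the start of the neural factor gene POU3F3, had 36.7 and 6.94 for Par, 0 and 2.12 for LM2, and 120 and 52.9 for BrM2. It fell in LM2 (adjusted p = 0.0181, up to 0.14 in other settings that kept all libraries), while its log2 fold change of 2.07 ± 0.73 in BrM2 missed the threshold (adjusted p = 0.0997) and passed it with the replicate block (0.000699). The loss of KHDRBS2 in LM2 had an adjusted p of up to 0.052 in such settings.

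Losses in BrM2 were fewer, and 15 of the 27 (55.6%) lay at a protein-coding start. The ENSG00000226767 peak (chr7:64973983-64975088) had 88.2 and 84.8 for Par, 9.15 and 8.9996 for LM2, and 0 in both BrM2 libraries. It was at least 29.7-fold lower in BrM2 than in Par (adjusted p = 1.07e-06) and changed by -3.25 (log2, SE 0.63) in LM2 ( adjusted p = 5.15e-05). XKR4 (chr8:56013590-56015129), a scramblase-family gene, had 47.8 and 33.1 for Par, 113 and 75.2 for LM2, and 1.32 and 4.36 for BrM2 (BrM2 against Par -3.62 ± 0.75, adjusted p = 0.000135). PKNOX2 (chr11:125034195-125035651), a TALE homeobox factor, had 90.0 and 61.6 for Par, 108 and 114 for LM2, and 13.2 and 20.5 for BrM2 (-2.11 ± 0.50, 0.0018). In the metastatic comparison RARRES2P1 (chr3:75707194-75708309), a pseudogene 5170 bases from the start of FRG2C, a gene with close copies elsewhere, had 79.0 and 105 for Par, 21.3 and 23.3 for LM2, and 40.9 and 67.2 for BrM2 (-1.40 ± 0.42, adjusted p = 0.0403). Its loss was called in LM2 (-2.04 ± 0.51, adjusted p = 0.00486) and not in BrM2 (-0.757 ± 0.48, adjusted p = 0.698). Of the 27 peaks lower in BrM2 than in Par, 19 (70.4%) were CpG-rich, against 91 of the 206 higher (44.2%) and 41.0% of the set.

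Some of these calls depended on the scaling or on 1 library. With size factors from the H3K4me3-only peaks, calls were lost for CTNNA2 in BrM2, for RNA5SP360 in BrM2 and between LM2 and BrM2, for RARRES2P1 in the metastatic comparison, and for ZBTB16, ZNF730, KCNB2, CNTN1 and PCDH20 in LM2. PCDH20 lost all 3 of its calls there. With edgeR the LM2 calls of LINC01159, KHDRBS2, PCDH20 and CNTN1 were lost. Without Par replicate 2, 37 of the 83 calls at the 42 peaks named by rule were lost, among them BEND5, PURPL, KCNB2 and ENSG00000226767 in LM2 and CTNNA2, ZNF730, FGF10, TUBA3C and ADAMTS5 in BrM2. No call changed direction in any setting.

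**Figure D3:**
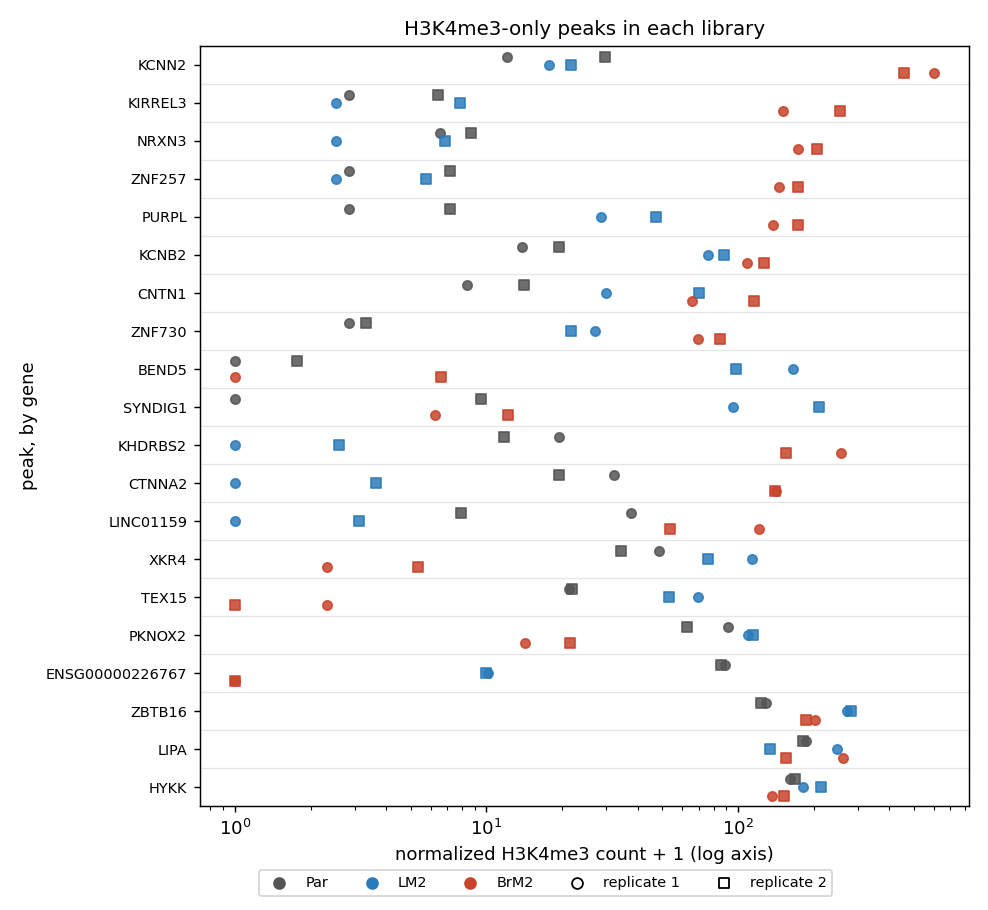
Normalized H3K4me3 count plus 1 (log axis) of 20 H3K4me3-only peaks, by gene, in each library; grey is Par, blue LM2, red BrM2, circles replicate 1 and squares replicate 2. KCNN2 in BrM2 (598 and 457) lies to the right of its Par and LM2 values, BEND5 is high in LM2 alone, KHDRBS2 is low in LM2 and high in BrM2, and LIPA has the 3 lines mixed.

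The 6 peaks with the highest mean level were those at ZBTB16, LIPA, KCNN2, CCDC39, HYKK and GPM6A. ZBTB16 (chr11:113929843-113932437), the PLZF transcription factor, had 129 and 123 for Par, 269.9 and 281 for LM2, and 202 and 186 for BrM2, with a call in LM2 (1.14 ± 0.35, adjusted p = 0.042, up to 1 in other settings). LIPA, the lysosomal acid lipase, ranged from 133 to 259.7 over the 6 libraries. CCDC39, a gene of motile cilia, ranged from 125 to 215, HYKK, hydroxylysine kinase, from 136 to 212, and GPM6A, a neuronal membrane glycoprotein, from 109.8 to 217. None of LIPA, CCDC39, HYKK and GPM6A was called in any comparison, and the lines overlapped in LIPA, CCDC39 and GPM6A but not in HYKK, where LM2 was highest and BrM2 lowest. The LIPA peak was 247 bases from an H3K27ac peak.

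The 10 gene lists held few H3K4me3-only peaks each, and their genes are counted by symbol for protein-coding starts within 2 kb. Of the H3K4me3 peaks at each list, the H3K4me3-only share was highest for protocadherins (16 of 24, 66.7%), then for ion channels and neurotransmitter receptors (33 of 138, 23.9%) and for axon guidance and synaptic adhesion genes (23 of 119, 19.3%). It was 11.6% for homeobox and developmental transcription factors (19 of 164) and 5.31% over all H3K4me3 peaks at protein-coding starts (710 of 13369). It was 2.33% for C2H2 zinc finger genes (12 of 514), 2.08% for the ribosomal protein pattern (2 of 96) and 1.35% for mitochondrial and proteasome genes (3 of 223). The ribosomal pattern also took RPS6KA2, a kinase, so only RPS15A is a ribosomal protein gene, and all 3 mitochondrial peaks belong to NDUFA4L2. None of these 5 peaks was called.

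The list counts below are to be read against all 710 H3K4me3-only peaks at protein-coding starts. Of these, 69 (9.72%) were higher and 15 (2.11%) lower in BrM2 than in Par, and 23 (3.24%) higher and 10 (1.41%) lower in LM2 than in Par. With the replicate block 111 were higher and 39 lower in BrM2.

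Axon guidance and synaptic adhesion genes had the most gains in BrM2 among the lists, with 8 of 23 peaks higher than in Par and 0 lower, with 8 higher and 1 lower under the block. The list's median log2 ratio with the floor was 1.63 in BrM2 (23 peaks). In LM2, 1 peak rose and 0 fell, and the fitted median was 0.33. The LM2 median with the floor was -0.85 (19 peaks), but raising Par alone to the floor can make it negative. CDH12, with 0 in both Par libraries and 0 and 2.12 in LM2, counts there as a fall although its fitted value was 2.67. The -0.85 is thus no measure of a decrease in LM2. Beside NRXN3, the 8 were the contactins CNTN1 and CNTN5, the classical cadherins CDH10, CDH12 and CDH18, and the leucine-rich repeat synaptic proteins LRRTM1 and SLITRK3. The members other than CNTN1 and NRXN3 were picked out after their values were seen. CNTN5 had 22.05 and 29.3 for Par, 36.6 and 41.8 for LM2, and 153 and 189.8 for BrM2 (2.71, adjusted p = 9.67e-07). CDH12 had 0 in both Par libraries, 0 and 2.12 in LM2, and 25.05 and 26.1 in BrM2 (adjusted p = 0.00367), and CDH10 had 0 in both Par libraries, 0 and 0.529 in LM2, and 17.1 and 16.8 in BrM2 (adjusted p = 0.0215). CNTN1 (chr12:41085871-41087104) rose in both sub-populations, from 7.35 and 13.1 in Par to 29.0 and 68.8 in LM2 and 64.6 and 115 in BrM2 (metastatic 2.64 ± 0.58, adjusted p = 0.00062).

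Ion channel and receptor genes had 5 of 33 peaks higher and 0 lower in BrM2 than in Par, with 10 higher under the replicate block (111 of 710 over all protein-coding starts), and 3 higher and 1 lower in LM2. KCNB2 (chr8:73448787-73450023), a voltage-gated potassium channel, had 12.9 and 18.5 for Par, 74.7 and 87.3 for LM2, and 108 and 126 for BrM2, and rose in LM2 (2.32 ± 0.50, adjusted p = 0.000565) and in BrM2 (2.85 ± 0.50, 2.36e-06). Protocadherins had 3 of 16 higher and 1 lower in BrM2. PCDH20 (chr13:61987904-61989797) had 11.02 and 13.1 for Par, 38.1 and 79.4 for LM2, and 43.5 and 79.0 for BrM2 (metastatic 2.31 ± 0.56, 0.00345), and lay 60 bases from an H3K27ac peak. PCDHB13 (chr5:140593427-140593803) was at least 4.99-fold lower in BrM2 than in Par (adjusted p = 0.0448), with 0 and 0.622 in BrM2 and from 9.15 to 16.2 elsewhere. Reads shared with other protocadherin genes of the cluster were not separated here.

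C2H2 zinc finger genes had 4 of 12 peaks higher and 1 lower in BrM2. The 4, ZNF257, ZNF98, ZNF492 and ZNF730, are primate KRAB zinc finger genes of 1 cluster on chromosome 19. ZNF257 (chr19:22234419-22236580) had 1.84 and 6.16 for Par, 1.52 and 4.76 for LM2, and 145 and 173 for BrM2 (5.10 ± 0.69, adjusted p = 1.14e-10). ZNF730 (chr19:23299378-23300448) had 1.84 and 2.31 for Par, 25.9 and 20.6 for LM2, and 68.5 and 84.0 for BrM2, at least 5.95-fold higher in LM2 (adjusted p = 0.0128) and 19.5-fold higher in BrM2 (2.2e-06). ZNF331, the loss, had 12.9 and 30.1 for Par, 21.3 and 30.7 for LM2, and 0 in both BrM2 libraries (adjusted p = 0.00114). ZNF98, ZNF492 and ZNF331 were named after their values were seen, and genes of this cluster resemble each other, so shared reads make single members uncertain.

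Homeobox and developmental factors had 2 of 19 peaks higher and 0 lower in BrM2 than in Par, and 0 called in LM2, a BrM2 share close to the 9.72% of all protein-coding starts. TBX22 (chrX:79277581-79278035), a T-box factor of palate development, had 0 in all 4 Par and LM2 libraries and 21.1 and 23.0 in BrM2, at least 5.64-fold higher than in Par (adjusted p = 0.00788, up to 0.7 in other settings that kept all libraries). OLIG1, a factor of oligodendrocytes and the list's smallest p in the metastatic comparison, ranged from 106 to 192 and was not called (adjusted p = 0.424). Secreted developmental signals and receptors had 1 of 11 higher, FGF10, and 1 lower, FZD9, in BrM2. FGF10 (chr5:44388663-44390084), a growth factor of lung and limb buds, had 3.67 and 1.54 for Par, 0 and 2.65 for LM2, and 35.6 and 54.2 for BrM2, at least 11.5-fold higher than in Par (adjusted p = 0.00183). FZD9 (chr7:72847597-72848215), a Wnt receptor, had 23.9 and 19.3 for Par, 1.52 and 3.71 for LM2, and 0 and 1.24 for BrM2, at least 7.41-fold lower in BrM2 (adjusted p = 0.0277, up to 0.053 in other settings that kept all libraries).

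Germline and testis genes had 1 of 8 peaks higher and 1 lower in BrM2 than in Par. TEX15 (chr8:30769455-30770228), which silences transposons in the male germline, had 20.2 and 20.8 for Par, 68.6 and 52.4 for LM2, and 1.32 and 0 for BrM2, at least 7.04-fold lower than in Par (adjusted p = 0.00647). TUBA3C (chr13:19755180-19756997), a testis alpha-tubulin with near-identical copies, had 0 in both Par libraries, 0 and 2.65 in LM2, and 36.9 and 42.3 in BrM2, at least 10.1-fold higher than in Par (adjusted p = 0.000447, up to 0.09 in other settings). Its place among its copies is uncertain. Collagen and matrix genes had 2 of 8 higher and 0 lower in BrM2 and 0 called in LM2. ADAMTS5 (chr21:28338912-28340040), an aggrecan-cleaving protease, had 0 and 1.54 for Par, 0 and 2.12 for LM2, and 39.5 and 57.3 for BrM2, at least 12.4-fold higher than in Par (adjusted p = 0.00108).

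Peaks far from H3K27ac had the most BrM2 gains. Of the 686 peaks under 10 kb from an H3K27ac peak, 17 (2.48%) were higher in BrM2 than in Par, of the 927 at 10 to 50 kb 32 (3.45%), of the 773 at 50 to 200 kb 78 (10.1%), and of the 412 farther away 79 (19.2%). The same shares with the replicate block were 6.56%, 6.04%, 16.6% and 31.6%. For LM2 against Par they were 2.19%, 2.80%, 4.01% and 2.67%, without such an order. BrM2 against LM2, which shares no Par library, gave 2.33%, 2.27%, 7.89% and 16.5%. The median level, averaged over all libraries with BrM2 included, was similar in the 4 classes (7.54, 8.03, 7.41 and 6.05 normalized counts). The share of CpG-rich peaks went from 37.9% to 44.4%. Distance was taken from the same H3K27ac peaks that defined the set. Of the 206 peaks higher in BrM2, 121 had 3 counts or fewer in both Par libraries. Such peaks can enter the set through BrM2 alone, and the part of this in the order by distance was not tested. The median distance was 145146 bases for peaks higher in BrM2 and 24660 for those lower, against 36249 for the set.

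**Figure D4:**
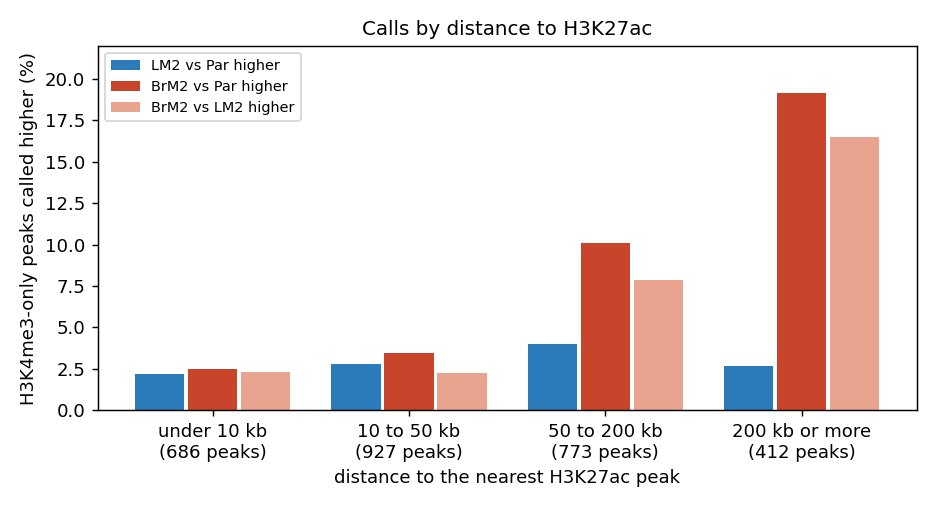
Share of H3K4me3-only peaks called higher (%, vertical axis) by distance to the nearest H3K27ac peak (horizontal axis, with the number of peaks), for LM2 against Par (blue), BrM2 against Par (red) and BrM2 against LM2 (pink). BrM2 against Par goes from 2.48% under 10 kb to 19.2% at 200 kb or more, while LM2 against Par stays between 2.19% and 4.01%.

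Where H3K27ac lay nearby, it was higher in BrM2 more often beside the H3K4me3-only peaks that were higher there. Of the 206, 49 had an H3K27ac peak within 50 kb, and in 19 of these (38.8%) at least 1 such peak was called higher in BrM2 than in Par by DESeq2 on the H3K27ac libraries. Among the 2565 H3K4me3-only peaks not called, 1542 had H3K27ac within 50 kb and 152 of these (9.86%) had at least 1 called higher. Counted singly, 2.99% of all H3K27ac peaks were called higher. That is no baseline for the shares above, which need only 1 of all neighbours within 50 kb. With the replicate block the shares were 33 of 101 (32.7%) beside higher peaks and 10.7% beside uncalled ones, with 4.04% of all H3K27ac peaks counted singly. For the other 157 of the 206 no H3K27ac peak lay within 50 kb. LM2 against Par gave 5 of 41 (12.2%) beside higher peaks and 6.85% beside uncalled ones. BrM2 against LM2 gave 8 of 37 (21.6%) and 4.80%, and with the block 10 of 82 (12.2%) and 7.47%. Beside peaks lower in LM2 than in Par, 4 of 10 had H3K27ac called lower, against 1.47% beside uncalled ones.

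BrM2 gains were unevenly spread over chromosomes. The share of H3K4me3-only peaks higher in BrM2 than in Par was 23.1% on chromosome 13 (15 of 65), 17.6% on X (23 of 131), 16.4% on 14 (19 of 116), 16.3% on 21 (7 of 43) and 14.1% on 5 (25 of 177). It was 1.33% on chromosome 7 (2 of 150) and 0 of 73 on chromosome 20. After subtracting the median change of all peaks on each chromosome, the counts were 15 on chromosome 13, 28 on X, 19 on 14, 6 on 21 and 25 on 5. The other H3K4me3 peaks of these chromosomes were higher in 3.46% (13), 1.73% (X), 3.92% (14), 7.17% (21) and 1.89% (5). DNA copy number was not measured, and its part in single regions was not tested.

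**Figure D5:**
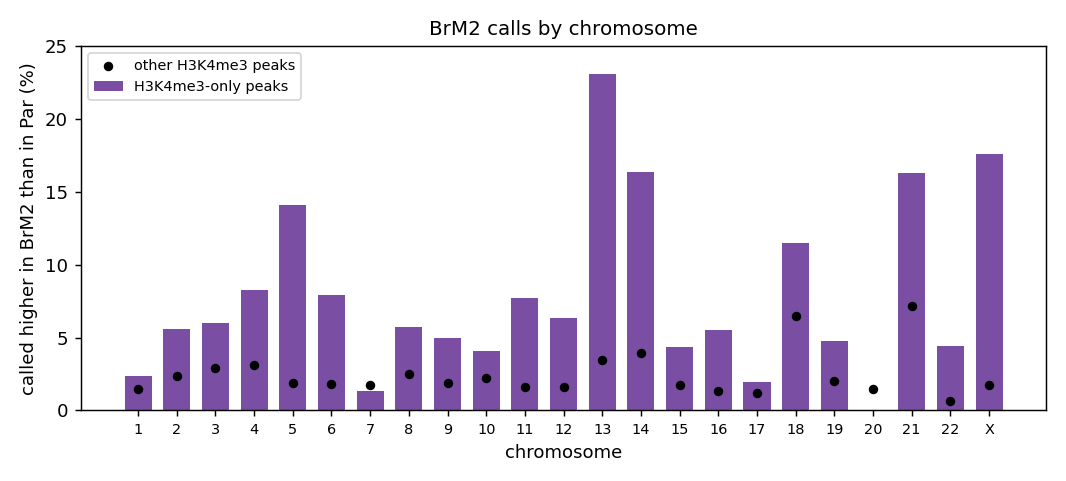
Share of peaks called higher in BrM2 than in Par (%, vertical axis) by chromosome (horizontal axis), with bars for H3K4me3-only peaks and points for all other H3K4me3 peaks. Bars reach 23.1% on chromosome 13 and 17.6% on X, where the points are at 3.46% and 1.73%.

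Within chromosomes, 73 of the 206 lay in 14 of the 308 windows of 10 Mb that hold a member, each of the 14 with at least 4 of them, while 199 windows held none. The window at 20 to 30 Mb of chromosome 5 had 10 of its 25 members higher in BrM2, among them peaks at CDH12, CDH10, CDH9 and CDH18, a row of cadherin genes in a gene-poor stretch, and PURPL. Of the 12 other H3K4me3 peaks there, 2 were higher. The window at 80 to 90 Mb of chromosome 13 had 7 of 9 members higher in BrM2 and 0 in LM2, among them peaks named by the pseudogenes VENTXP2 and TET1P1 and by LINC00351. On chromosome 14, the windows at 20 to 30 Mb and 40 to 50 Mb had 8 of 27 and 6 of 19 higher, and the zinc finger window at 20 to 30 Mb of chromosome 19 had 4 of 10. These windows were chosen by their counts.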

How the data were processed

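ChIP-seq reads of both marks in Par, LM2 and BrM2 (2 libraries per line and mark) were processed by the authors, and the deposited values are raw counts of reads per peak. Per the submitters' processing notes and the study's methods, the authors used CASAVA 1.8.2, Trimmomatic 0.32, Bowtie2 2.3.4.3 on hg19, Picard 2.18.21, SAMtools, MACS2 2.1.2 and HOMER 4.10, called broad peaks of a mark on all its libraries merged, and counted reads extended by 150 bases at the 3′ end with featureCounts. Counts in wide peaks collect more background, and merged calling can miss peaks of 1 line. Input libraries (3) were not analysed here, and the deposited region lists, with the same peaks as the count tables, were not used here.

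H3K4me3 peaks under 4 kb with 0 bases shared with an H3K27ac peak were selected. The members, gene lists, distance classes and windows were chosen with earlier results of these data known. DESeq2 1.42.0 (R 4.3.3, Wald test, median-of-ratios size factors, default independent filtering) was fitted to all H3K4me3 peaks with line as the only term, and peaks with a Benjamini-Hochberg adjusted p under 0.05 were called. Every adjusted p in the text is from DESeq2 unless another tool is named. Of the 2798 members, 2075 (LM2), 2608 (BrM2), 1932 (metastatic) and 2798 (BrM2 against LM2) passed its filter on low counts. Each count was divided by its library's size factor for the levels in the text. Alternatives were the replicate number as a block, edgeR 4.0.16 (TMM, quasi-likelihood), a minimum of 10 counts in 2 libraries, no filtering, loess offsets, size factors from members, chromosome medians removed, and leaving out each library. The script was tested on simulated data.

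Replicate numbers come from the sample titles. Deviations of same-numbered libraries from their line means correlated over all peaks (r = 0.697 for Par and LM2, 0.664 for Par and BrM2, 0.706 for LM2 and BrM2, and 0.264 to 0.299 over members), so the numbers were taken to pair the libraries. Replicate 2 was also the deeper library in every line. The part of depth in these correlations was not tested, and the labels do not state a pairing.

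Named peaks were the 4 highest and 4 lowest called fold changes of each comparison among members whose groups did not overlap and whose normalized count averaged 30 or more, the 6 highest levels, the smallest p of each gene list in the metastatic comparison and in BrM2 against LM2, and the members at the limits of the rule. Genes came from GENCODE 44 (GRCh37 coordinates) and sequences from the hg19 reference. Depth ranged from 3489607 to 9839629 reads in peaks per library. Python 3.11.15, pandas 2.3.3 and matplotlib 3.10.9 were used.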

Additional observations from a re-analysis of the deposited data

Results flagged for a closer look

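BrM2 and LM2 differed from each other, in a fit that tests the difference itself, at 220 H3K4me3-only peaks (adjusted p under 0.05, DESeq2). Among the peaks named above, the log2 fold change of BrM2 against LM2 was 7.8 at ENSG00000259117, 7.48 at KHDRBS2, 7.06 at TBX22, 6.85 at LINC01446, 6.78 at LINC02327, 6.24 at CTNNA2 and 5.89 at LINC01159. It was 5.42 at both NRXN3 and ZNF257, 5.33 at KIRREL3, 5.07 at ADAMTS5, 4.79 at KCNN2, 4.67 at FGF10, 4.5 at TUBA3C, 4.15 at VENTXP5 and 2.04 at PURPL. In the other direction it was -7.07 at TEX15, -5.76 at ENSG00000226767, -5.23 at BEND5, -4.85 at XKR4, -4.14 at SYNDIG1, -2.68 at PKNOX2 and -1.85 at RNA5SP360. At TBX22, ENSG00000259117, KHDRBS2, LINC01446, LINC02327, TEX15 and ENSG00000226767 the lower line had 3 counts or fewer in both libraries, so the fitted value there depends on the model and is no bound.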

How the results depend on the processing

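The 4 counts of called H3K4me3-only peaks were 102 for LM2 and 233 for BrM2 against Par, 98 for the metastatic comparison, and 220 for BrM2 against LM2. As shares of the members these were 3.65%, 8.33%, 3.50% and 7.86%, against 2.32%, 3.54%, 2.37% and 3.18% of all H3K4me3 peaks. With the replicate block the counts were 208, 422, 216 and 450. These were 7.43%, 15.1%, 7.72% and 16.1% of the members, below the 12.7%, 17.3%, 13.2% and 21.1% of all H3K4me3 peaks. With edgeR and the replicate block the counts were 651, 974, 678 and 1076. Those were 23.3%, 34.8%, 24.2% and 38.5% of the members, against 26.2%, 33.3%, 27.1% and 38.6% of all H3K4me3 peaks. With loess offsets and the replicate block, an alternative chosen after seeing the data, the counts were 201, 354, 217 and 437. These were 7.18%, 12.7%, 7.76% and 15.6% of the members, below the 12.4%, 15.3%, 12.1% and 18.5% of all H3K4me3 peaks. The metastatic count was 65 with edgeR alone and 56 with size factors from the H3K4me3-only peaks. Leaving out 1 library gave 6 to 75, 43 to 214, 4 to 75 and 45 to 202. Every other setting left the counts within 1.5 times. Of 83 calls at the named peaks, the replicate block ended 1 (BEND5 in the metastatic comparison, adjusted p = 0.0737) and changed no other call, edgeR ended 12, size factors from the H3K4me3-only peaks 17, loess offsets 5, and 0 reversed in any setting. The cause of these changes was not tested. There were 2 libraries a line, and up to 64.5% of members had 3 counts or fewer in a library. The smallest difference that could be called was not measured.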
